A study of Mus musculus with 15 samples.

Results

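The genes described here encode the subunits of the mitochondrial respiratory chain and of ATP synthase in sorted cells of mouse skin tumours. They were taken by symbol: protein-coding genes whose mouse symbol starts with Ndufa, Ndufb, Ndufc, Ndufs, Ndufv, Uqcr, Cox4 to Cox8 or Atp5, or is Sdha, Sdhb, Sdhc, Sdhd or Cyc1, without "-ps" symbols and assembly factors. Of 86 matching genes, 80 had a count of 10 or more in at least 2 libraries and are the members, out of 37583 genes in the count tables. All 80 passed the filter on low counts and were tested. Grouped by symbol, they comprise 38 genes of complex I, 4 of complex II, 9 of complex III, 12 of complex IV and 17 of ATP synthase. Ndufa4 and its relative Ndufa4l2 are counted with complex I by that rule. The 6 genes below the count rule (Cox4i2, Cox6a2, Cox7a1, Cox7b2, Cox8b and Cox8c) are treated with the isoforms. The 13 subunits encoded in mitochondrial DNA were not found by symbol in the count tables and are not analysed here.

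The respiratory chain passes electrons from NADH (complex I) and succinate (complex II) through complex III and cytochrome c to complex IV, which reduces oxygen. Complexes I, III and IV pump protons across the inner mitochondrial membrane, and ATP synthase uses the returning protons to make ATP. Complexes I, III and IV and ATP synthase join core subunits with small accessory subunits, and most subunits are encoded in the nucleus. Keratinocyte tumours use this route beside glycolysis, which makes less ATP from glucose.

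RNA was sequenced from skin tumour cells of C57BL/6 mice. All animals, of both genotypes, had received DMBA/TPA (a mutagen and a tumour-promoting phorbol ester) over more than 24 weeks. Cells were sorted on CD34, a marker of hair follicle bulge cells, and on integrin alpha 6 (a6, a basal keratinocyte receptor for laminin) into CD34+ a6-high, CD34- a6-high and CD34- a6-low populations. Wild-type (WT) animals were compared with animals labelled SIRT6 KO, which carry K14-cre and floxed SIRT6 alleles on both chromosomes, so that the histone deacetylase gene Sirt6 is a target in K14-expressing keratinocytes only. There were 2 KO and 3 WT libraries of each population, 15 in all. The labels leave it unsaid whether the libraries of a group stem from different animals, and the p-values then cover only the spread among these libraries, which may be partly technical. Levels are given as CPM, counts per 1e6 gene counts on scaled library sizes, and differences as log2 values with their standard error.

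Promoters of 4 genes among the 6 of smallest p between the libraries labelled KO and WT are shown first, because they contain or lack the motifs for which such promoters are known. Nuclear respiratory factor 1 (NRF1) binds GCGCA, any base, then GCGC, and the ETS factor GABP (NRF2) binds around CCGGAAG. Both were searched on both strands, and no match of 1 motif overlapped a match of the other. The windows run from 250 bases before to 50 bases after the RefSeq start (GRCm38.p6), and capitals mark the motif. Atp5o (a peripheral stalk subunit of ATP synthase, chr16:91931581-91931880, minus strand) and Ndufa5 (complex I, chr6:24527477-24527776, minus strand) each hold 1 NRF1 match. Ndufb7 (complex I, chr8:83566508-83566807, plus strand) holds 1 ETS match and Ndufa12 (complex I, chr10:94198785-94199084, plus strand) neither.
Atp5o: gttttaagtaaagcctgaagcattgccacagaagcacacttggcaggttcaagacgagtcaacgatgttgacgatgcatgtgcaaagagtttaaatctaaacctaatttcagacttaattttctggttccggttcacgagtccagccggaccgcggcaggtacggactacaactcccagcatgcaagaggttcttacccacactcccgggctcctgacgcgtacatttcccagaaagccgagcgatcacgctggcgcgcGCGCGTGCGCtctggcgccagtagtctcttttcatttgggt
Ndufa5: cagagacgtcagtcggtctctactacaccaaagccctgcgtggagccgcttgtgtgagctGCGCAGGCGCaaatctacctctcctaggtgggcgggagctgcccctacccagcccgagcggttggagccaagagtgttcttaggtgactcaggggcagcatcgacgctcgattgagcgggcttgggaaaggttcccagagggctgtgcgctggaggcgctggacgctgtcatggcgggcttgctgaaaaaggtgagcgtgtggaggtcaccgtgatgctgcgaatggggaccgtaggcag
Ndufb7: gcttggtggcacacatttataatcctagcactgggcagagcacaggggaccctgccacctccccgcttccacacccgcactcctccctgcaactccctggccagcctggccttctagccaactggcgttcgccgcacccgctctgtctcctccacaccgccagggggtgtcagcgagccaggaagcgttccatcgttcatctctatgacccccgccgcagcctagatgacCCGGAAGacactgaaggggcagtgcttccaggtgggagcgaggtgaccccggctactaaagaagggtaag
Ndufa12: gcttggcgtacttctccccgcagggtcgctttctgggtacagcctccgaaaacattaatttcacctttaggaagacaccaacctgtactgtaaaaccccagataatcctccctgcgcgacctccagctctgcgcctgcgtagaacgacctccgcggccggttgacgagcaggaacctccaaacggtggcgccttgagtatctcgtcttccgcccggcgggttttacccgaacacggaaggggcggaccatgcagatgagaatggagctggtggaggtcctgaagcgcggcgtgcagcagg

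RefSeq promoter windows of 300 bases were matched for 64 of the 80 genes. The NRF1 motif stood in 17 of them (26.6%), against 5.2% of 27025 genes with a window and 7.2% of 17492 protein-coding genes. The ETS motif stood in 16 (25%), against 9.9% and 12.9%. Atp5h, Atp5k, Sdhd and Cox6a1 held both motifs, and 35 of the 64 held neither. A match describes the letters and does not show binding.

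Several libraries stood apart from the rest in depth, and this bears on every genotype value below. Gene counts were 19.78 to 28.62 M (M, 1e6) in the 6 KO libraries and 20.27 to 21.56 M in 3 WT libraries, but 10.08 to 16.16 M in the other 6 WT libraries. The less deep libraries were WT replicate 1 in the CD34- a6-high population, WT replicate 2 in the CD34+ a6-high and CD34- a6-low populations, and WT replicate 3 in all 3 populations. Records outside genes made up 2.61% to 4.21% in those 6 libraries, 4.05% to 4.47% in the other 3 WT libraries and 3.75% to 5.13% in the KO libraries. Results between genotypes are therefore given with all libraries and without the 6 less deep WT libraries, a limit of 17 M set after the data were seen. Sirt6 was counted at 5.07 to 8.53 CPM in KO and 4.45 to 10.54 CPM in WT libraries, so whole-gene counts did not separate the genotypes, and a deletion of some exons need not lower them. Itga6 was at the a6-high level in 2 CD34- a6-low libraries, KO replicate 2 (445.5 CPM) and WT replicate 1 (470.8 CPM), against 67.9 to 174.1 CPM in the other 3.

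Subunit mRNAs took 2.62% to 3.77% of all gene counts per library. Compared per length of transcript, the highest mean levels were those of Ndufa4 (1902 CPM per kb), first described in complex I and known to sit in complex IV, and of Atp5b, the catalytic beta subunit of ATP synthase (1656 CPM per kb). Cox6a1 led complex IV with 1252 CPM per kb, Uqcr10 led complex III with 1004 and Sdhd, a membrane anchor, led complex II with 321.7. The median level per kb was 685.2 over the 9 complex III genes, 592.9 over ATP synthase, 495.2 over complex IV, 220.2 over complex I and 189.3 over complex II. The lowest levels per kb in each complex were those of Ndufb4 (47.3), Sdhc (42.7), Uqcrc2 (230.4), Cox6b2 (1.61) and Atp5s (11.0). The tables give no gene counts for reads with several alignments, which leaves members that have near-identical copies uncertain.

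Several isoforms that are typical of other tissues had few or no reads. The lung and oxygen-regulated Cox4i2 had 13 reads over the 15 libraries, and 11 libraries had 0. The heart and skeletal muscle isoforms Cox6a2 and Cox7a1 had 2 and 50 reads in all. Cox8b, of muscle and brown fat, had 0 reads among 283.4 M gene counts, which allows up to 0.0106 CPM, counting error only. Their common partners Cox4i1, Cox6a1 and Cox8a were at 568.9 to 1266, 418.1 to 1196 and 300.7 to 607.4 CPM. Cox7b2 and Cox8c had 1 read each in all. Cox7a2l, known for its part in supercomplexes, made up 12.1% to 20.1% of the Cox7a family per length. Ndufa4l2, a hypoxia-induced relative of Ndufa4, made up 1.30% to 11.2% of the pair per length (median 5.52%). Both ends of that range were libraries of KO replicate 1, the CD34+ a6-high library at 1.30% and the CD34- a6-high library at 11.2%.

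The genes moved together from library to library. For each gene, Pearson's r of log2(CPM + 1) with the mean of the other 79 was taken over the 15 libraries as a description, since libraries share depth and sort. The median r was 0.92, and 43 genes exceeded 0.9. Only Atp5g3 (r = -0.65), Atp5g2 (r = -0.53) and Cox6b2 (r = -0.09) were below 0. The spread of a gene over the libraries was 0.10 to 0.68 (SD, log2), with a median of 0.36. Ndufs1, an iron-sulfur core subunit of complex I, followed the others less closely (r = 0.42), as did Sdhc (r = 0.26) and Atp5e (r = 0.21).

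**Figure D1:**
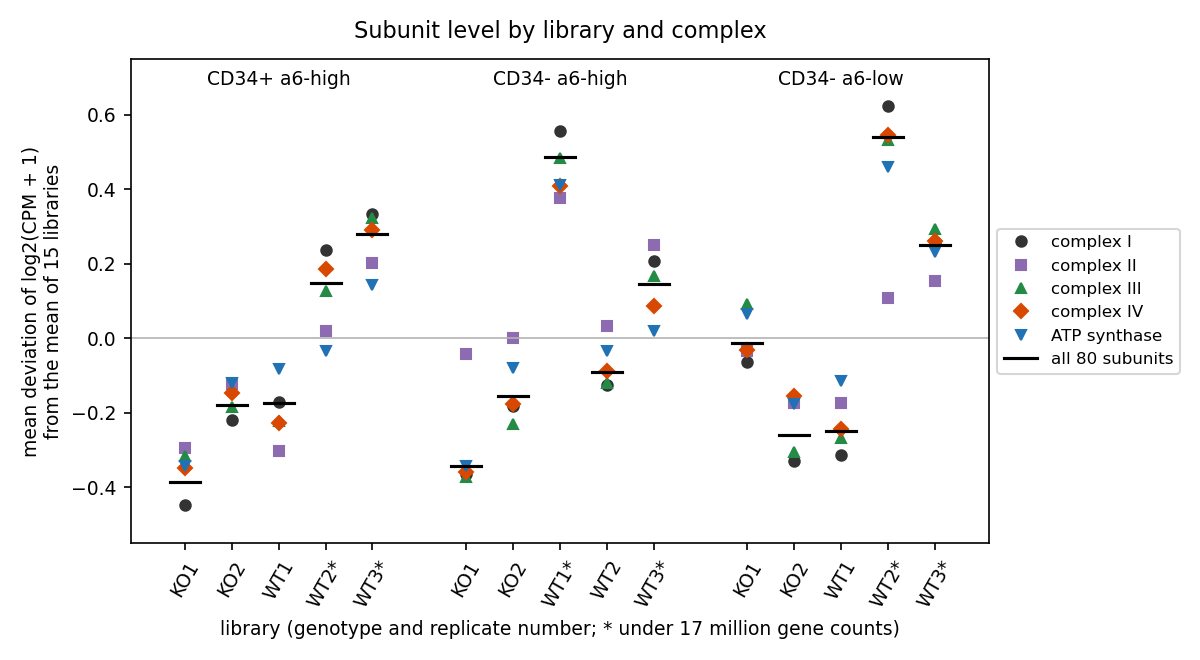
Mean deviation of log2(CPM + 1) from the mean of 15 libraries (y axis) for each library (x axis, by population), with a symbol per complex and a bar for all 80 subunit genes. An asterisk marks the 6 WT libraries under 17 M gene counts, whose bars lie between 0.147 and 0.541, above the bars of all other libraries.

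Averaged over the 80 genes, the 6 less deep WT libraries did not overlap with the other 9 libraries of either genotype. The mean deviation was 0.309 ± 0.168 (SD, n = 6) in the less deep WT libraries, from 0.147 to 0.541. It was -0.171 ± 0.078 (SD, n = 3) in the other WT libraries, from -0.248 to -0.092, and -0.224 ± 0.137 (SD, n = 6) in the KO libraries, from -0.387 to -0.013. The 3 deep WT libraries thus lay within the range of the KO libraries. Complexes I, III and IV each stood higher in all 6 less deep libraries than in any of the other 9, as the plot of subunit level by library shows. ATP synthase overlapped, with -0.033 to 0.460 in the less deep WT libraries and -0.344 to 0.064 in the KO libraries, as did complex II, with 0.019 to 0.376 against -0.303 to 0.033 in the deep WT libraries.

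Other short transcripts moved with the subunits. Over 500 other genes with a transcript under 1 kb and a mean log2 level of at least 5, the mean deviation was 0.242 ± 0.083 (SD, n = 6) in the less deep WT libraries, -0.117 ± 0.073 (SD, n = 3) in the deep ones and -0.184 ± 0.096 (SD, n = 6) in the KO libraries. Over 766 genes above 4 kb the order was opposite, with -0.146 ± 0.024, 0.100 ± 0.088 and 0.096 ± 0.098. Of the 80 subunit genes, 52 have a transcript under 1 kb. The part of transcript length and depth in the subunit values was not tested beyond these values and a fit with the length trend removed, given below.

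**Figure D2:**
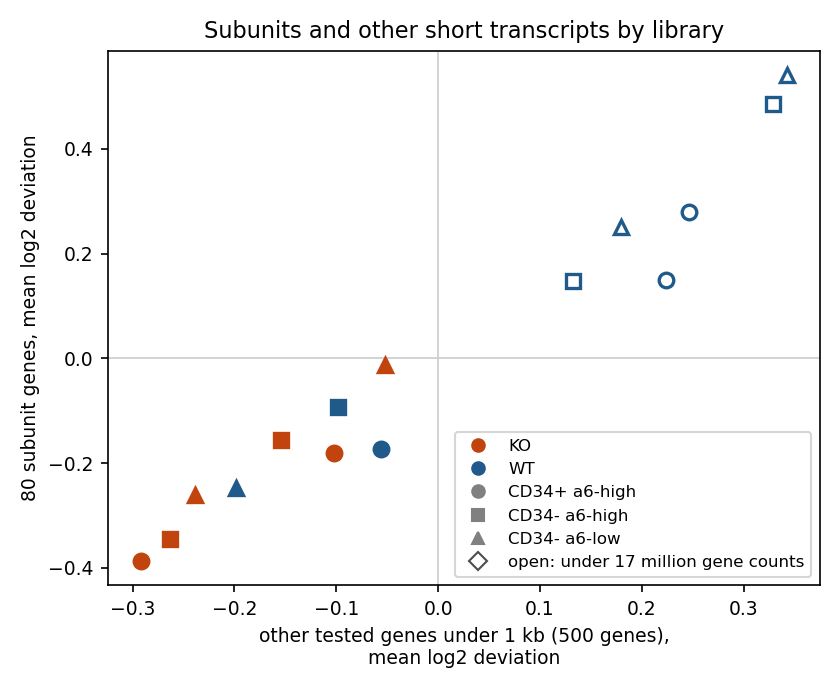
Mean log2 deviation of the 80 subunit genes (y axis) against that of 500 other tested genes under 1 kb (x axis), 1 point per library, with colour for genotype, shape for population and open symbols for under 17 M gene counts. The 6 open symbols lie at the upper right, and the 3 filled WT symbols lie among the 6 KO symbols.

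KO and WT were compared over all populations on counts summed per genotype and replicate number. No subunit gene passed an adjusted p of 0.05 (edgeR quasi-likelihood test, Benjamini-Hochberg over 15597 genes, of which 1, or 0.00641%, passed). The genes were jointly lower in the libraries labelled KO: 76 of 80 had a log2 difference below 0, against 47.2% of all genes, with a median of -0.384 against 0.029. At an unadjusted p under 0.05, 33 of 80 (41.2%) were lower, against 5.24% of all genes, and 0 were higher, against 5.38%. In 58 genes (72.5%) both KO sums lay below all 3 WT sums, against 15.3% of all genes. Fewer cells of a type and less RNA per cell cannot be told apart in such samples. The sums of WT replicate 3 hold less deep libraries only, so depth and genotype cannot be told apart in this comparison, and no sums of all populations could be formed without them.

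The 6 genes of smallest p were Ndufb7, Ndufa12, Atp5g1, Atp5o, Ndufs8 and Ndufa5. Ndufb7, a small subunit of the complex I membrane arm, had 159.7 and 146.7 CPM in the KO sums and 236.9, 254.4 and 333.5 CPM in the WT sums. Its log2 difference was -0.84 ± 0.20 (1.79-fold lower, adjusted p = 0.461 in edgeR). Ndufa12, an accessory subunit on the matrix arm, had 110.9 and 124.4 CPM against 178.6, 241.0 and 294.5 CPM. Its difference of -1.02 ± 0.24 was the largest among the 80 genes (2.02-fold lower, adjusted p = 0.461 in edgeR). With DESeq2 in place of edgeR, these genes passed, Ndufa12 at an adjusted p of 0.0322 and Ndufb7 at 0.0474, as did 143 genes in all.

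Atp5g1, which encodes the same mature c subunit of the proton-driven rotor as Atp5g2 and Atp5g3, had 322.0 and 291.2 CPM in KO and 450.2, 469.2 and 606.5 CPM in WT sums (log2 -0.73 ± 0.19). Atp5o had 487.2 and 507.6 against 693.1, 706.8 and 815.8 CPM (-0.57 ± 0.15). Ndufs8, an iron-sulfur protein of complex I, had 211.2 and 222.7 against 296.4, 327.7 and 399.8 CPM (-0.65 ± 0.18). Ndufa5 had 152.2 and 143.8 against 203.7, 209.2 and 253.8 CPM (-0.59 ± 0.16). In each of these 6 genes the KO and WT sums did not overlap, and the adjusted p was 0.461 (edgeR).

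Most of the catalytic and defining subunits named here stood nearer to 0 than the median of the 80 genes (-0.384), but Uqcrc1 and Cox5a did not. Sdha, Ndufs1, Atp5a1 and Atp5b, all near 0, have long transcripts (2900, 2590, 2471 and 1916 bases). Uqcrc1 has 1653 bases and stood further from 0 than Cox4i1 with 745. The part of transcript length in the values of these genes was not tested. Atp5b had 3123 and 3035 CPM in KO and 3199, 3180 and 3371 CPM in WT sums (log2 -0.08 ± 0.14, adjusted p = 0.845 in edgeR). Atp5a1, the alpha subunit beside it, differed by -0.17 ± 0.14. Ndufs1 differed by -0.02 ± 0.16 and Ndufv1, which binds NADH, by -0.09 ± 0.14. Sdha, the flavoprotein of complex II, differed by -0.09 ± 0.16 and Sdhb, its iron-sulfur partner, by -0.24 ± 0.16. Uqcrfs1, the Rieske protein of complex III, had 366.7 and 277.5 CPM in KO and 282.3, 312.0 and 375.8 CPM in WT sums, which overlap (-0.01 ± 0.20). Uqcrc1, a core protein of complex III, was among the lower genes at -0.49 ± 0.18 (adjusted p = 0.461 in edgeR), and Cyc1, its cytochrome, stood at -0.31 ± 0.18. Cox4i1 and Cox5a of complex IV differed by -0.24 ± 0.17 and -0.43 ± 0.15.

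**Figure D3:**
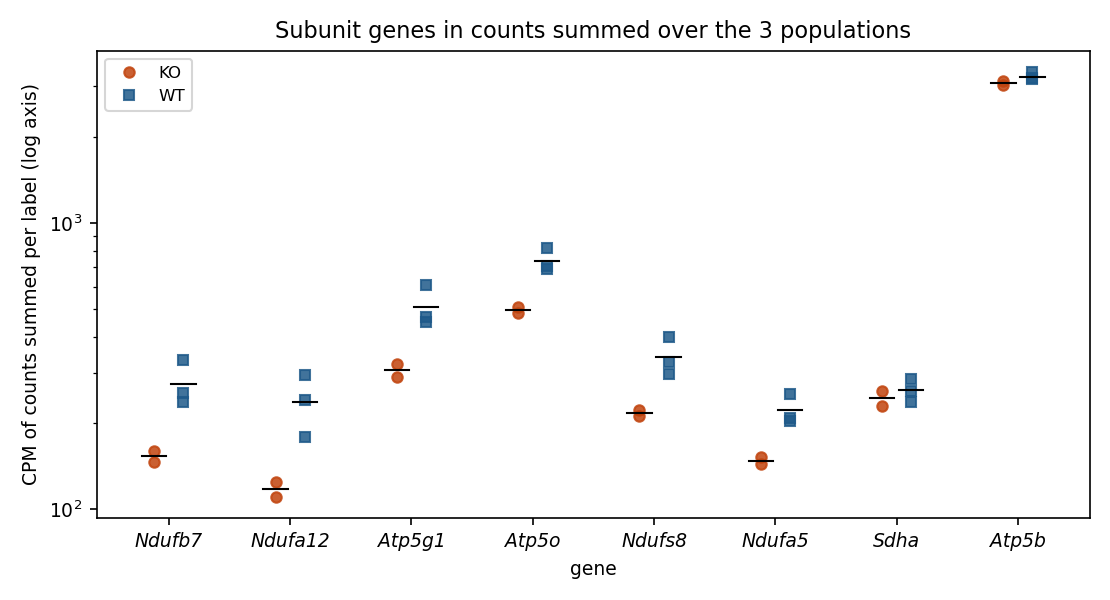
CPM of counts summed over the 3 populations per genotype and replicate number (y axis, log scale) for the 6 subunit genes of smallest p and for Sdha and Atp5b (x axis), with a point per label and bars for the means. The KO points lie below all WT points in the first 6 genes and near or among them in Sdha and Atp5b.

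By complex, the median log2 difference in the sums was -0.453 for complex I (37 of 38 genes below 0), -0.166 for complex II (4 of 4), -0.351 for complex III (9 of 9), -0.327 for complex IV (12 of 12) and -0.288 for ATP synthase (14 of 17). The 4 genes above 0 were Atp5g3 (0.20 ± 0.16), Atp5g2 (0.11 ± 0.18), Ndufa1 (0.09 ± 0.17) and Atp5l (0.03 ± 0.17), none past the test. The 52 genes with a transcript under 1 kb had a median of -0.435 and the other 28 of -0.301. For other genes with a log2 level of at least 5, a floor and not a match in level, these medians were -0.315 (510 genes) and -0.065 (4003 genes). With the trend on transcript length taken out in each library, the median of the 80 genes was -0.182, and 11 had an unadjusted p under 0.05, as did 1303 of 15597 genes in all.

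The comparisons within the 3 populations share no libraries, and the subunit genes were lower in the KO libraries in each. They are not independent, since they come from 1 fit and same-numbered libraries of a genotype may share an animal. In each of them, most WT libraries were less deep than the KO libraries. In CD34+ a6-high cells 0 of 80 genes passed (background 0.00683%), 74 were below 0 (48.9% of all genes), 7 had an unadjusted p under 0.05 and were lower (3.19%), and 30 had both KO libraries below all WT libraries (13.2%). In CD34- a6-high cells 0 passed (0.00683%), 75 were below 0 (46.4%), 10 were lower at the unadjusted threshold (4.31%) and 45 did not overlap (13.7%). In CD34- a6-low cells 0 passed (0.00683%), 73 were below 0 (46.5%), 2 were lower at the unadjusted threshold (1.82%) and 2 did not overlap (6.38%). The median log2 differences were -0.439, -0.469 and -0.401, against 0.013, 0.051 and 0.042 for all genes.

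Without the 6 less deep WT libraries, which leaves 2 KO libraries and 1 WT library in each population, the medians shrank to -0.054 in CD34+ a6-high and -0.158 in CD34- a6-high cells and turned to 0.103 in CD34- a6-low cells. Genes below 0 then numbered 47, 68 and 16 of 80, and the share of all genes below 0 was not counted in that fit. All genes tested had medians of 0.056, 0.036 and 0.038 in that fit, and 0 of 15172 genes passed in any of the 3, in which 531, 327 and 265 genes had an unadjusted p under 0.05. The lone WT library is assumed there to vary like the other groups.

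Ndufa12 shows this in single libraries. The KO libraries had 100.7 and 125.1 CPM in CD34+ a6-high, 102.0 and 135.4 in CD34- a6-high and 125.9 and 117.9 in CD34- a6-low cells. The WT libraries had 136.8, 269.0 and 316.8 CPM, then 328.5, 167.4 and 283.1 CPM, then 121.3, 363.2 and 273.9 CPM, for replicates 1 to 3 in the same order of populations. The deep WT library of each population (136.8, 167.4 and 121.3 CPM) thus lay nearest to the KO libraries. With all libraries the log2 differences were -1.09 ± 0.45, -1.13 ± 0.45 and -1.05 ± 0.45 (adjusted p = 0.652, 0.510 and 0.865 in edgeR). Without the 6 less deep libraries they were -0.26, -0.49 and -0.004. Ndufb7 went from -0.88, -1.01 and -0.83 to -0.35, -0.18 and -0.07.

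The other genes of smallest p in CD34+ a6-high cells were Atp5o (-0.72 ± 0.31), Ndufab1, the acyl carrier protein that is also part of complex I (-0.69 ± 0.31), Atp5j of the ATP synthase stalk (-0.68 ± 0.31) and Ndufv2 of the NADH-oxidizing module (-0.55 ± 0.25), all at an adjusted p of 0.652. In CD34- a6-high cells they were Atp5g1 (-0.88 ± 0.33), Atp5mpl, a small membrane protein of ATP synthase (-0.74 ± 0.30), Cox6a1 (-0.72 ± 0.31) and Uqcrc1 (-0.67 ± 0.28), at adjusted p values of 0.498 to 0.515. In CD34- a6-low cells they were Atp5g1 (-0.78 ± 0.33), Ndufa2 (-0.60 ± 0.30), Ndufs7 (-0.60 ± 0.32) and Ndufv2 (-0.47 ± 0.25), at an adjusted p of 0.865. These adjusted p values are from edgeR. Without the 6 less deep WT libraries, Atp5o, Ndufab1, Atp5j and Ndufv2 stood at -0.550, -0.279, -0.494 and -0.407 in CD34+ a6-high cells. Atp5g1, Atp5mpl, Cox6a1 and Uqcrc1 then stood at -0.255, -0.354, -0.421 and -0.226 in CD34- a6-high cells. In CD34- a6-low cells Atp5g1, Ndufa2 and Ndufv2 stood at -0.111, -0.086 and -0.130, and Ndufs7 turned to 0.085.

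**Figure D4:**
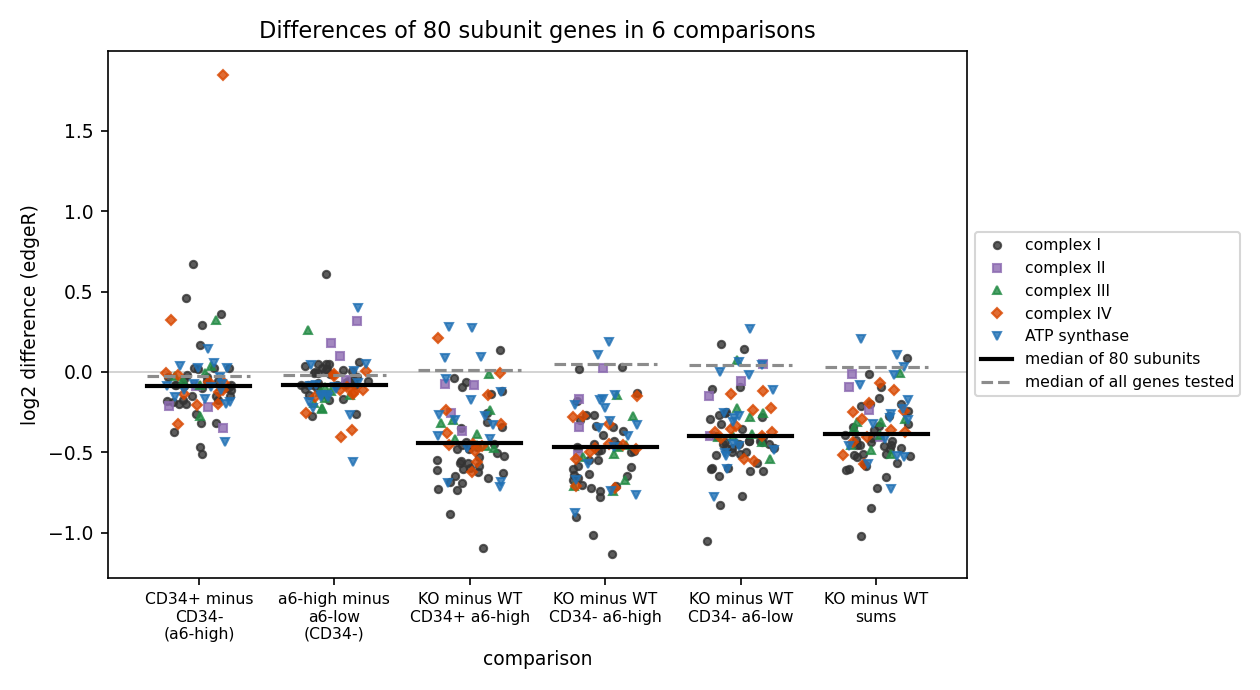
Log2 difference (y axis) of each of the 80 subunit genes, with a symbol per complex, in 6 comparisons (x axis), with a solid bar for their median and a dashed bar for the median of all genes tested. The solid bar lies between -0.384 and -0.469 in the 4 KO comparisons and near the dashed bar in the CD34 and a6 comparisons. In the CD34 comparison Cox6b2 stands apart at 1.848.

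The 3 genes of the ATP synthase c subunit went different ways. Per length, Atp5g1 made up 23.2% to 26.9% of the 3 genes in the KO libraries, 26.5% to 28.8% in the deep WT libraries and 42.0% to 51.1% in the less deep WT libraries. Atp5g1 had 271.1 to 358.2 CPM, 337.6 to 373.6 CPM and 473.8 to 747.9 CPM in those sets. Atp5g3 was lowest in the less deep libraries, with 965.0 to 1237 CPM, 1044 to 1075 CPM and 727.8 to 885.8 CPM. Atp5g2 made up 2.24% to 3.33% throughout. The balance of Atp5g1 and Atp5g3 therefore separated the 6 less deep WT libraries from all 9 others, WT and KO, with no value between 28.8% and 42.0%.

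CD34+ and CD34- a6-high cells were compared as the mean of the KO and the WT difference. No subunit gene passed in the main fit (edgeR), which did not use the pairing of same-numbered libraries, while 171 of 14652 genes did (1.17%). With a block per label Cox6b2 passed, as given below. The median of the 80 genes was -0.087 against -0.023 for all genes, with 62 below 0 (52.8% of all genes). At an unadjusted p under 0.05, 2 were higher (8.11% of all genes) and 1 was lower (7.02%), shares that lie below the background. The median was -0.069 without the less deep WT libraries. The summed endothelial markers were also higher in every CD34+ library (15.3 to 66.1 CPM) than in any CD34- a6-high library (4.20 to 9.30 CPM), and their part in these values was not tested.

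Ndufa4 was the abundant gene of smallest p. Its CD34+ and CD34- levels were 1186 and 543.8 CPM in KO replicate 1, 1023 and 511.0 in KO replicate 2, 849.9 and 1073 in WT replicate 1, 950.5 and 581.5 in WT replicate 2, and 1215 and 842.9 in WT replicate 3. It was higher in CD34+ cells in 4 of 5 same-numbered pairs, and WT replicate 1 went the other way. The difference was 0.67 ± 0.24 (1.59-fold, adjusted p = 0.200 in edgeR), and 0.80 without the less deep WT libraries (adjusted p = 0.267). With no filter on low counts it passed (adjusted p = 0.0213).

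Cox6b2, the testis isoform of a complex IV subunit, was close to the counting limit but higher in CD34+ cells in 5 of 5 pairs. It had 50, 18, 15, 20 and 20 reads in the CD34+ libraries (KO replicates 1 and 2, then WT replicates 1 to 3) and 13, 3, 4, 6 and 10 reads in the CD34- a6-high libraries. In CPM these were 0.718 to 2.10 against 0.131 to 0.767, which overlap. The log2 difference was 1.85 ± 0.52 (3.60-fold, adjusted p = 0.105 in edgeR). No label states pairs, and same-numbered libraries were taken as pairs here from correlations of their deviations from group means (0.104 to 0.53). With a block per label Cox6b2 passed (1.88, adjusted p = 0.0493 in edgeR, with 793 genes called), a call that rests on this choice. It also passed with DESeq2 (1.89, adjusted p = 0.0248) and with no filter on low counts (adjusted p = 0.0418 in edgeR). Without the less deep WT libraries its difference was 1.75 (adjusted p = 0.409). Its common partner Cox6b1 stood at 443.5 to 1087 CPM, so Cox6b2 was at most 0.427% of the pair per length.

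Ndufa1, a small membrane subunit of complex I, was lower in CD34+ cells in 4 of 5 pairs (-0.47 ± 0.19, adjusted p = 0.259), and Ndufab1 was higher in 4 of 5 (0.46 ± 0.22, adjusted p = 0.335). Sdhc, a membrane anchor of complex II, was lower in 5 of 5 pairs, with 112.3 to 141.4 CPM in CD34+ and 136.7 to 156.5 CPM in CD34- cells (-0.22 ± 0.11, adjusted p = 0.390). Uqcrc2, a core protein of complex III, was higher in 5 of 5 (0.32 ± 0.17, adjusted p = 0.405). These 4 adjusted p values are from edgeR. All told, 4 of 80 genes were lower and 2 (Cox6b2 and Uqcrc2) higher in every pair, against 10.2% and 10.1% of all genes.

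In a6-high against a6-low CD34- cells, which share the CD34- a6-high libraries with the comparison above, 0 of 80 genes passed, as did 1 of 14652 in all (0.00683%, edgeR). The median was -0.082 against -0.020 for all genes, and 59 were below 0 (52.4% of all genes). Atp5e, the epsilon subunit of the ATP synthase central stalk, had the smallest p. It had 77.7, 136.0, 144.6, 122.6 and 92.4 CPM in a6-high cells and 176.6, 155.2, 180.6, 182.6 and 140.0 CPM in a6-low cells (KO replicates 1 and 2, then WT replicates 1 to 3). It was lower in a6-high cells in 5 of 5 comparisons of same-numbered libraries, which are a description, since a6 libraries were not taken as pairs. The groups overlapped only through WT replicate 1 in the a6-high and WT replicate 3 in the a6-low population. The log2 difference was -0.56 ± 0.18 (adjusted p = 0.302 in edgeR). Of all genes, 6.85% were lower in all 5 of these comparisons, and of the 80 genes only Atp5e was.

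**Figure D5:**
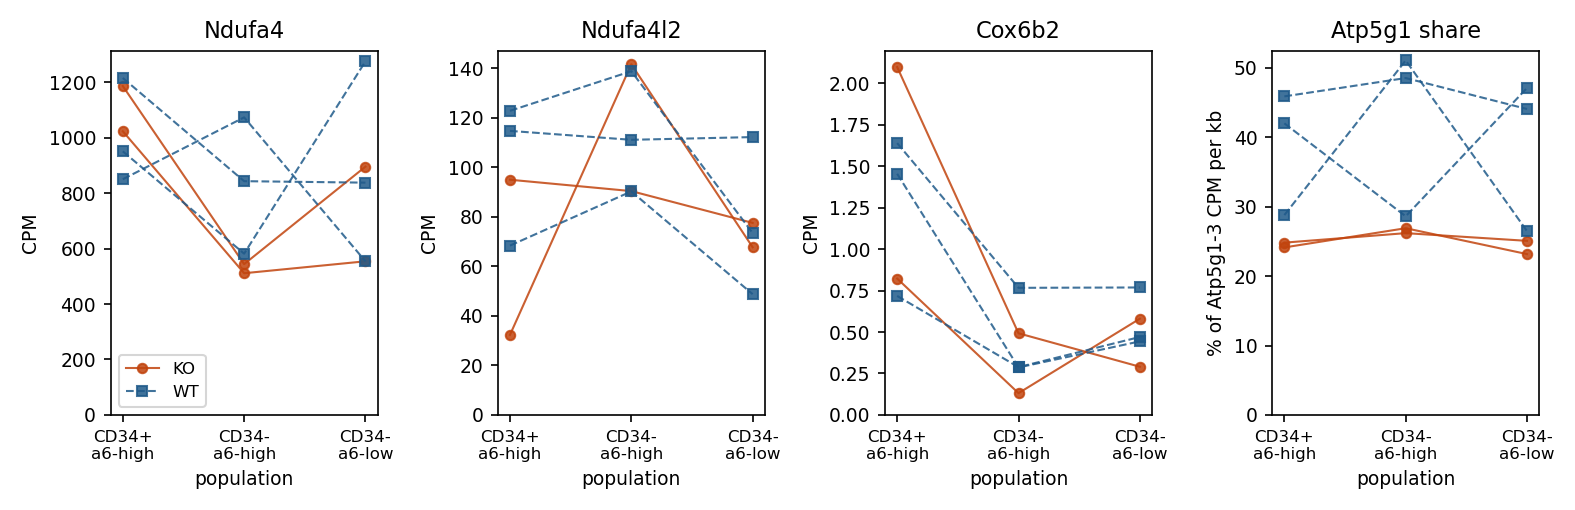
CPM of Ndufa4, Ndufa4l2 and Cox6b2, and the share of Atp5g1 among the 3 c subunit genes per length (y axes), in the 3 populations (x axis), with lines joining libraries of the same genotype and replicate number. Cox6b2 is higher in the CD34+ library than in the CD34- a6-high library on all 5 lines, and the Atp5g1 share of the KO lines stays below 26.91%.

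Ndufa4l2 had 141.6, 90.4, 138.8, 111.1 and 90.3 CPM in a6-high and 67.7, 77.6, 73.5, 112.2 and 48.8 CPM in a6-low CD34- cells, in the same order of libraries. It was higher in a6-high cells in 4 of 5 comparisons of same-numbered libraries (0.61 ± 0.31, adjusted p = 0.512 in edgeR). Cox6b1 differed by -0.36 ± 0.21, Atp5s, a coupling factor, by 0.40 ± 0.25, Sdhd by 0.32 ± 0.20 and Uqcrc1 by 0.26 ± 0.19, at adjusted p values of 0.584 to 0.682 (edgeR). Without KO replicate 2 and WT replicate 1 of the a6-low population, whose Itga6 was as high as in a6-high cells, the median of the 80 genes was -0.214 (0.035 for all genes), with 73 below 0 and 10 at an unadjusted p under 0.05, as were 2378 of 15364 genes (15.5%), while 342 of 15364 genes passed and 0 of the 80 did. The WT libraries of the a6-low population left in that fit, replicates 2 and 3, were both less deep. Depth and a6 can therefore not be fully told apart there. Without the 6 less deep WT libraries the median was 0.026, with 34 genes below 0, so its sign rested on which libraries entered. The share of all genes below 0 was not counted in either of these fits.

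Whether the CD34 and a6 differences themselves differed between genotypes was tested as an interaction. None of the 80 genes passed, nor did any other (0% in both, edgeR), and 0 of the 80 had an unadjusted p under 0.05. Of all genes 0.218% were higher and 0.867% lower at that threshold for CD34, and 0.669% and 0.478% for a6. DESeq2 called 0 of the 80 as well. The smallest p for CD34 was that of Ndufa4 (0.80 ± 0.48), followed by Cox7c of complex IV (0.44 ± 0.35) and Ndufa4l2 (-0.71 ± 0.62). For a6 it was that of Ndufs1 (-0.28 ± 0.25), followed by Atp5b (-0.17 ± 0.21) and Cyc1 (-0.25 ± 0.33). The adjusted p was 1 for each of these 6 in edgeR. Medians over the 80 genes were 0.087 for CD34 and -0.108 for a6.

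Other mitochondrial genes, from lists chosen with earlier results of these data known, were counted the same way, and none passed in any of the 8 comparisons (edgeR). Depth and genotype cannot be told apart in the KO and WT sums for these lists either, and 47.2% of all genes were below 0 there, with 5.24% lower at an unadjusted p under 0.05. In the sums, 72 of 76 mitochondrial ribosome genes were below 0 (median -0.398), with 31 at an unadjusted p under 0.05 and lower, among them Mrpl28 (-0.75 ± 0.18) and Mrpl23 (-0.74 ± 0.18). Of 44 assembly factors 38 were below 0 (median -0.301), with Uqcc2, a complex III factor, at -0.68 ± 0.15, but Coa5, a complex IV factor, at 0.53 ± 0.17. Of 7 carriers 6 were below 0 (median -0.302), with Cycs, cytochrome c, at -0.66 ± 0.18. The 18 tricarboxylic acid cycle genes had a median of -0.055 with 12 below 0, and Idh2 (-0.38 ± 0.14) had the smallest p. Of 17 regulators of mitochondrial biogenesis 6 were below 0 (median 0.127), and Ssbp1 (-0.44 ± 0.16) had the smallest p. Within CD34+ a6-high, CD34- a6-high and CD34- a6-low cells, the mitochondrial ribosome medians were -0.372, -0.486 and -0.417 with all libraries and -0.062, -0.121 and 0.062 without the 6 less deep WT libraries. The assembly factor medians were -0.297, -0.246 and -0.369, and 0.115, -0.022 and 0.059 without them.

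Marker lists of other cell types were summed in each library. The basal keratinocyte list (Krt5, Krt14, Itga6, Itgb4, Col17a1 and Trp63) summed to 34710 to 83120 CPM in every library. The 7 skeletal muscle markers summed to 5.26 to 22.1 CPM, with 1 to 5 of them at 0 in a library. The 8 pericyte and smooth muscle markers summed to 43.8 to 173.5 CPM, with 2 to 5 at 0, and the 2 brown fat markers to 0.219 to 7.85 CPM. The 8 fibroblast markers summed to 0.902 to 9.004 CPM in the CD34+ and 9.13 to 264.0 CPM in the CD34- a6-high libraries. In the CD34- a6-low libraries they summed to 217.1 to 287.6 CPM. Most of each sum was Postn. Of the rest of that list, Thy1 reached at most 3.82 CPM, Col1a2 1.91 CPM and Col1a1 1.72 CPM, and Lum was at 0 throughout. Macrophage and dendritic markers summed to 31.2 to 178.7 CPM in the KO and 9.36 to 103.3 CPM in the WT libraries, and suprabasal keratinocyte markers to 4236 to 23420 CPM in the CD34- a6-low, 2224 to 10590 CPM in the CD34- a6-high and 1380 to 6882 CPM in the CD34+ libraries. Endothelial markers summed to 15.3 to 66.1 CPM in the CD34+, 4.20 to 9.30 CPM in the CD34- a6-high and 2.84 to 22.7 CPM in the CD34- a6-low libraries. Melanocyte markers to 0.669 to 6.56 CPM, apart from 139.2 CPM in KO replicate 1 of the CD34- a6-low population. The part of these cells in the subunit values was not tested.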

How the data were processed

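The authors deposited raw read counts for 37583 Ensembl genes, not normalized. The 15 libraries were made by SMART-Seq v4 per the labels' protocols. STAR 2.3.0, Picard 1.100, HTSeq 0.6.0 and build mm9 are named per the submitters' processing notes. The gene annotation that was counted is not stated in those notes or the labels. The kit does not mark strand, so a gene and an antisense gene that overlaps it share reads that cannot be told apart. Entries without a gene entered no library size or test. They held reads aligned to several places (29.86% to 38.04% of records), outside genes (2.61% to 5.13%) and in more than 1 gene (1.86% to 2.2%). Names, gene classes and transcript lengths came from GENCODE M21, matched by identifier for 32860 genes (87.4%), and no mm9 coordinates are given.

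The test was edgeR's quasi-likelihood F test (edgeR 4.0.16 in R 4.3.3) after TMM scaling and filterByExpr on the groups, with all libraries in 1 fit (14652 genes) and Benjamini-Hochberg adjustment at 0.05 within a comparison. Sums per genotype and replicate number were fitted apart (15597 genes). Standard errors were derived from the F statistic. A transcript length was that of the shortest best-ranked principal transcript, and levels per length are descriptions. The scripts were tested on simulated data. No replicate was a repeat of another within sampling noise (chi-square over degrees of freedom 35.6 to 289.9).

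Correlations of deviations from group means were 0.104 to 0.530 in the 5 same-numbered CD34 pairs, so these were taken as pairs, from the data and not the labels. The CD34 pair counts used this pairing, and the main fit did not. Both KO pairs mirror each other and give the same value. The correlations were -0.012 to 0.466 for a6, a range that overlaps that of CD34, and -0.501 to 0.105 between KO and WT. Neither of these was taken as pairs. As an alternative, a replicate block was fitted per label for CD34, a6 and the interactions. For KO against WT within a population the block was fitted per replicate number.

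The members and lists were chosen with earlier results of these data known. The text names in each comparison the 6 subunit genes of smallest p (3 for an interaction), the isoform families, 11 catalytic or defining subunits, the highest and lowest levels per length, and up to 4 genes of smallest p of a context list. Uqcc2, Coa5, Cycs, Mrpl28, Mrpl23, Idh2 and Ssbp1 come from these. The members above 0 in the sums were named after their values were seen. The alternatives used DESeq2 1.42.0, edgeR on DESeq2's size factors, no filter, 10 CPM in 2 libraries, the length trend removed, only the groups compared, a replicate block and each library left out. Alternatives added after seeing the data left out 6 WT libraries under 17 M (M, 1e6) gene counts, 5 WT libraries under 3.4% of records outside genes, KO replicate 2, or 2 a6-low libraries with high Itga6, or took the percent outside genes as a covariate.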

Additional observations from a re-analysis of the deposited data

Results flagged for a closer look

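Of 102 groups of 5 libraries examined for a library far from the others, 1 was picked out, and chance picks out about 1 group in 20. Atp5e in WT replicate 2 of the CD34+ a6-high population was at 99.06 CPM, while the other 4 libraries of that population were at 126.0 to 136.0 CPM. Its gap to the nearest library was 0.729 of the whole range, above the critical value of 0.71.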

How the results depend on the processing

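Of 144 counts of subunit genes passing under an alternative, 140 were the same as the reported ones, all of which are 0, and the others were for CD34, 1 with DESeq2 (Cox6b2), 2 with no filter on low counts (Cox6b2 and Ndufa4) and 1 with the replicate block (Cox6b2), and for the sums 2 with DESeq2. The replicate block added no other call. Of 144 medians, 137 moved by less than 0.272, the pooled SD of library means. Without the 6 less deep WT libraries the KO medians were -0.054 (CD34+ a6-high), -0.158 (CD34- a6-high) and 0.103 (CD34- a6-low). Without the 5 WT libraries with few records outside genes the first of these were -0.074 and -0.156 and the a6 interaction median 0.18, and with the percent outside genes as a covariate CD34+ a6-high stood at -0.157. Of 734 values of named genes 2 turned sign: Cyc1 in the a6 interaction to 0.083 without KO replicate 1 in the a6-low population (range -0.534 to 0.083 over libraries left out), and Ndufs7 in CD34- a6-low cells to 0.085 without the 6 less deep WT libraries. The cause was not tested.

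With each library left out in turn 0 subunit genes passed in any comparison, and the medians ranged from -0.540 to -0.280 for KO in CD34+ a6-high, -0.586 to -0.304 in CD34- a6-high and -0.604 to -0.173 in CD34- a6-low cells, -0.456 to -0.310 in the sums, -0.171 to -0.002 for CD34, -0.187 to 0.036 for a6, -0.106 to 0.191 for the CD34 interaction and -0.294 to 0.093 for that of a6. In groups of 2 and 3 libraries the number of libraries limits what can be said of a single gene. Over all genes, the alternatives called 0 to 1242 for CD34 (171 reported), 0 to 602 for a6, 0 to 143 in the sums and 0 to 256 for KO within a population (1 reported in each), and 0 to 20 for the interactions (0 reported).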
